A study of Mus musculus with 2 samples.

Results

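Annexins are calcium-dependent, phospholipid-binding proteins of the cytosol and the cell surface. The genes described here are Anxa1 to Anxa9 and Anxa11, and they make up 10 of 43346 gene rows in the tables. They were chosen by symbol and not by a rule on their values, but with earlier results of these data known. The lung of 1 female C57BL/6J mouse, an adult of 10 weeks, gave the polyadenylated RNA for 2 sequencing libraries, called technical replicates 1 and 2 in the labels. The second of them is the later one, and the RNA came from a column kit for lipid-rich tissue. There is 1 group and no treatment, so no comparison of conditions exists, and every SD below (n = 2 libraries) measures technical spread, not variation between mice.

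Each annexin has a conserved core of repeats that binds membranes holding acidic phospholipids when calcium rises, and a variable N-terminal region that binds partner proteins. Members of the family take part in membrane repair, exocytosis, control of clotting and resolution of inflammation. In lung, Anxa1 is known as an anti-inflammatory protein of leukocytes and epithelium, Anxa2 as a surface receptor for plasminogen and its activator, and Anxa5 as the protein whose binding to phosphatidylserine is used to detect dying cells.

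Printed below are a cassette exon of Anxa6, a cassette exon of Anxa7 and a stretch that Anxa11 shares with pseudogenes. The start of the coding sequence is also printed for the annexins of lowest and highest GC content. All were read from GENCODE M21 reference transcripts on GRCm38, 5′ to 3′ along the transcript. In both cassette exons the capitals mark the exon, and 30 bases of each neighbouring exon are in lower case. The Anxa6 exon has 18 bases, is exon 21 of 26 of ENSMUST00000108883 and lies at chr11:54987051-54987068 on the minus strand. The Anxa7 exon has 66 bases, is exon 6 of 14 of ENSMUST00000100844 and lies at chr14:20467458-20467523 on the minus strand. The shared stretch holds coding bases 1001 to 1060 of Anxa11, at chr14:25879084-25879143 on the plus strand, and stands unchanged in Gm2260 and Gm2274. The first 90 coding bases, with the start codon in capitals, lie within chr19:20384560-20384758 on the minus strand for Anxa1 and within chr14:25868872-25870103 on the plus strand for Anxa11, and an intron interrupts each. Their GC content was 37.8% in Anxa1 and 66.7% in Anxa11. The same 90 bases held 60% in Anxa7 and 61.1% in Anxa9. No result below uses these starts, and GC content there is that of whole annotated transcripts.
Anxa6 cassette exon: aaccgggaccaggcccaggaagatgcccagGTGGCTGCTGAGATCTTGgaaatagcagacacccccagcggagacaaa
Anxa7 cassette exon: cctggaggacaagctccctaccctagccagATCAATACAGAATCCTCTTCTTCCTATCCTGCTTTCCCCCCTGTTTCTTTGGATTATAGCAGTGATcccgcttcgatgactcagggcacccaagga
Anxa11, Gm2260 and Gm2274: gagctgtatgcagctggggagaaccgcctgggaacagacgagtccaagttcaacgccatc
Anxa1 first coding bases: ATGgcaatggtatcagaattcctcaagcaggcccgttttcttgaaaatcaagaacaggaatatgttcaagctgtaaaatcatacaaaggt
Anxa11 first coding bases: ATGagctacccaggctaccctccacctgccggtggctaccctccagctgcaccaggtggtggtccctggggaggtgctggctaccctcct

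All 10 annexins were detected at 1 TPM (an abundance per length, scaled to the same total in each library) or more in both libraries, and 4 of them, Anxa1, Anxa2, Anxa3 and Anxa5, reached 100 TPM in both. The family's summed share of TPM was 0.1744% and 0.1815% in replicates 1 and 2, with a mean of 0.1779% ± 0.005027 (SD, n = 2). As a share of all expected counts it was 0.1819% and 0.2592%, so the summed share was close in both libraries by TPM and further apart by counts. A share of TPM also depends on the other genes in the same total. Of that total Scgb1a1 alone held 17497.89 TPM in replicate 1 and 174256.75 TPM in replicate 2. The levels of 7 single members were over 2-fold apart by scaled counts. Of all genes whose mean TPM reached 1, 39.3% were over 2-fold higher in replicate 2 and 28.2% over 2-fold lower. The 4 most abundant annexins of each library held 86.4% of the family's TPM in replicate 1 and 79.7% in replicate 2. They were not the same 4 genes: Anxa4 was among them in replicate 1 and Anxa2 in replicate 2. In replicate 1 the order of TPM from the top was Anxa1, Anxa5, Anxa3, Anxa4, Anxa2, Anxa7, Anxa6, Anxa11, Anxa8 and Anxa9. In replicate 2 it was Anxa2, Anxa5, Anxa1, Anxa3, Anxa6, Anxa4, Anxa11, Anxa7, Anxa8 and Anxa9. Across the 10 genes, Spearman's rho of TPM between the libraries was 0.79, a description over genes that share both libraries. Of the 9 pairs of neighbours in the order of mean TPM, 8 overlapped in their values, and Anxa3 above Anxa4 was the exception.

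**Figure D1:**
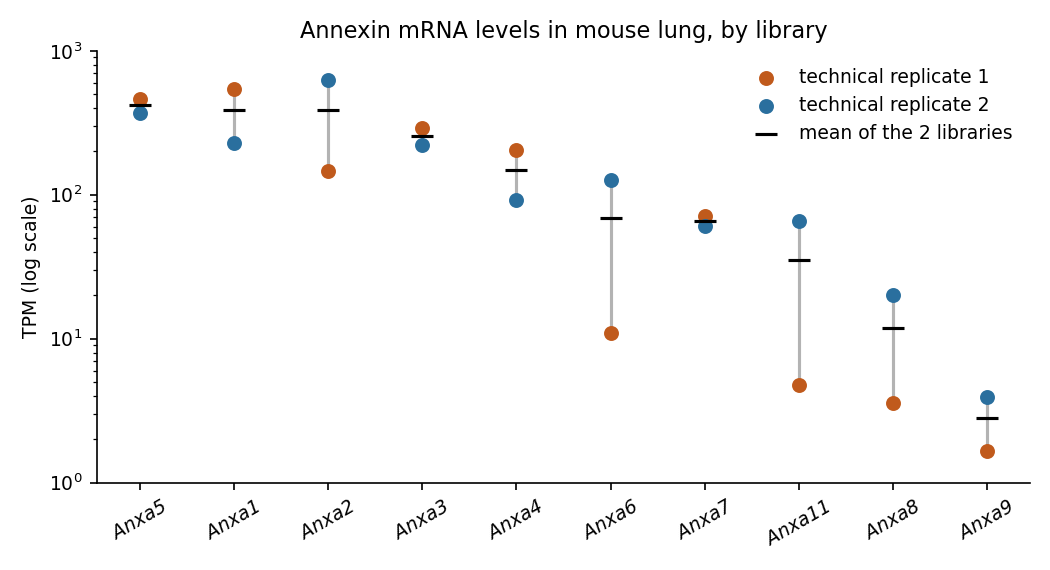
TPM (log axis) of each annexin in technical replicates 1 and 2, ordered by the mean of the 2 libraries, which a black bar marks; grey lines join the values of a gene. Anxa5, Anxa3 and Anxa7 lie close together in both libraries, while Anxa6 (11.01 and 126.94 TPM) and Anxa11 (4.76 and 65.41 TPM) lie far apart.

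The libraries held 16104442 and 17110882 expected counts. Most lung marker genes reached 1 TPM in both. All 3 club cell, 4 alveolar type 2, 4 alveolar type 1, 4 fibroblast, 4 macrophage and 4 mesothelial markers did so. Of 4 endothelial markers 3 did so, of 3 ciliated cell markers 2, and of 4 neutrophil markers 3. The exceptions were Cldn5, at 0.43 and 606.68 TPM, Foxj1, at 0.11 and 42.84 TPM, and Ly6g, at 0.56 and 0.5 TPM. Marker levels differed. Summed TPM was 22640 and 180200 for club cells, 2831 and 46640 for alveolar type 2 cells, and 798.7 and 3897 for alveolar type 1 cells. Scgb1a1, at 17497.89 and 174256.75 TPM, held most of the club sum. Sums were also higher in replicate 2 for ciliated cells (90.53 and 753.9) and fibroblasts (1846 and 4098). They were lower for endothelial cells (1590 and 1211), macrophages (1890 and 1019), neutrophils (1157 and 739.8) and mesothelial cells (193.8 and 114.8). Single markers of the club and alveolar lists went otherwise: Scgb3a2 stood at 4671.03 and 4405.78 TPM, Lamp3 at 687.36 and 190.59 TPM, and Rtkn2 at 135.91 and 57.64 TPM. The rest of the club and alveolar lists were higher in replicate 2. The macrophage markers did not move together either, with Chil3 at 1766.42 and 941.01 TPM and Cd68 at 4.08 and 41.22 TPM. Cardiac muscle markers summed to 91.79 and 957.7 TPM, and those of squamous epithelium to 0 and 1.11 TPM. The part of these differences in the annexin values was not tested. Both libraries are technical replicates from 1 lung. Differences in the cells sampled, in RNA per cell and in the making of the libraries cannot be told apart here. Of the 14139 genes whose mean TPM reached 1, replicate 2 exceeded replicate 1 by over 2-fold in 39.3% and fell short of it by over 2-fold in 28.2%, on counts scaled by the TMM method. The median log2 ratio of these genes was 0.19 with TMM scaling, 0.45 with scaling by total counts and 0.01 as a ratio of TPM.

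Against that background, 5 annexins were over 2-fold higher in replicate 2 (Anxa2, Anxa6, Anxa8, Anxa9 and Anxa11), 2 were over 2-fold lower (Anxa1 and Anxa4) and 3 lay within 2-fold (Anxa3, Anxa5 and Anxa7). The median log2 ratio of the annexins was 0.66. With a single library on each side, none of these differences has a replicate check, and no p-value is given. Fold differences below are ratios of TMM-scaled counts with exact Clopper-Pearson 95% intervals, which cover counting error only.

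Anxa5 (ENSMUSG00000027712.9, chr3:36448923-36475894, minus strand) was the most abundant annexin by mean TPM. Its protein covers exposed phosphatidylserine and is an anticoagulant. Its TPM was 464.02 in replicate 1 and 371.7 in replicate 2 (mean 417.9 ± 65.28 TPM, SD, n = 2), from 7999 and 9019 expected counts. The scaled counts of replicate 2 were 0.8848 times those of replicate 1 (interval 0.8585 to 0.912), so the libraries were near each other in Anxa5. Anxa5 has 1 transcript in the tables. The protein-coding genes nearest to it in log2(TPM + 1) over the 2 libraries were Rps27l, at a distance of 0.118, and Scp2, at 0.135.

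Anxa1 (ENSMUSG00000024659.10, chr19:20373428-20390944, minus strand) encodes a glucocorticoid-regulated protein that acts through formyl peptide receptors. It was the most abundant annexin in replicate 1, at 544.44 TPM, and had rank 3 in replicate 2, at 228.32 TPM. The mean was 386.4 ± 223.5 TPM (SD, n = 2), from 8598 and 5302 expected counts. Scaled counts were 2.066-fold higher in replicate 1 (interval 1.997 to 2.139), with an interval that reaches just below 2-fold. Scaling by total counts, the log2 ratio was -0.78 in place of -1.05, which is within 2-fold. The main transcript held 92.48% of the gene's abundance in replicate 1 and 98.25% in replicate 2. A retained-intron transcript of 578 bases at the 3′ end of Anxa1 held 7.46% and 1.39%. The nearest genes to Anxa1 in log2(TPM + 1) were Msn, at a distance of 0.048, and Thbd, at 0.055.

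Anxa2 (ENSMUSG00000032231.10, chr9:69453620-69491795, plus strand) encodes the annexin that joins S100a10 in a heterotetramer at the cell surface. It had rank 5 in replicate 1, at 146.19 TPM, and rank 1 in replicate 2, at 624.52 TPM, a mean of 385.4 ± 338.2 TPM (SD, n = 2). The expected counts were 1245 and 12350, and scaled counts were 7.784-fold higher in replicate 2 (interval 7.343 to 8.258). The TPM differed less, by 4.272-fold, and TPM are divided by length: the deposited mean transcript length of Anxa2 was 940.42 bases in replicate 1 and 1436.49 bases in replicate 2. The nearest genes to Anxa2 in log2(TPM + 1) were Atp5b, at a distance of 0.048, and Bpifa1, at 0.186.

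The transcript to which most Anxa2 reads were assigned differed between the libraries. The full-length transcript ENSMUST00000034756, with 1447 bases and 13 exons, held 20.28% of the gene's abundance in replicate 1 and 98.48% in replicate 2. A shorter transcript, ENSMUST00000136282, with 827 bases, held 72.46% and 0.08%, which is 767.86 and 4.95 expected counts. It begins with an exon of its own of 156 bases at chr9:69480111-69480266 and shares its other 671 bases with bases 495 to 1165 of the full-length transcript. Most Anxa2 reads of replicate 1 were thus assigned to a form without the first 494 bases of the main transcript, and hardly any of replicate 2. This assignment is an estimate, since the 2 forms share 671 bases. Reads over the own exon of the short form were not counted, so whether its use differed between the libraries cannot be said. The GC content of these 494 bases was 55.1%, against 52.3% in the shared part, 51.4% in the 282 bases after it and 50% in the own exon of the short form. The posterior mean estimates gave nearly the same shares of the full-length transcript, 20.16% and 98.27%, but come from the same reads and are no separate check.

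Anxa3 (ENSMUSG00000029484.8, chr5:96793339-96845966, plus strand) encodes an annexin that is abundant in neutrophils, where it associates with granules. Its TPM was 292.25 in replicate 1 and 221.85 in replicate 2 (mean 257.1 ± 49.78 TPM, SD, n = 2). From 4633 and 4949 expected counts, the scaled ratio of replicate 2 to replicate 1 was 0.8383 (interval 0.8052 to 0.8727). Anxa3 had rank 3 in replicate 1 and rank 4 in replicate 2. The 4 neutrophil markers had no common direction in TPM: S100a8 stood at 852.96 and 320.28, S100a9 at 246.53 and 342.99, Retnlg at 56.85 and 76.07, and Ly6g at 0.56 and 0.5. Their part in the level of Anxa3 was not tested.

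Anxa4 (ENSMUSG00000029994.13, chr6:86736840-86793584, minus strand) encodes an annexin of epithelial cells that assembles on membranes. Its TPM was 205.23 in replicate 1 and 91.27 in replicate 2 (mean 148.2 ± 80.58 TPM, SD, n = 2), from 4201 and 2630 expected counts. Scaled counts were 2.035-fold higher in replicate 1 (interval 1.938 to 2.138), with an interval that reaches below 2-fold. By total counts the log2 ratio of Anxa4 was -0.76 in place of -1.03. Of the 10 annexins Anxa4 shared sequence with the most other genes: 67 of them hold stretches of 50 bases found in its transcripts, at most 24 such stretches each. Its expected counts were whole numbers in both libraries.

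Anxa6 (ENSMUSG00000018340.9, chr11:54979108-55033445, minus strand) differs from the rest of the family in having a doubled core, and its main transcript has 25 exons and 2001 coding bases. Its TPM was 11.01 in replicate 1 and 126.94 in replicate 2 (mean 68.97 ± 81.97 TPM, SD, n = 2). From 282 and 4603 expected counts, scaled counts were 12.81-fold higher in replicate 2 (interval 11.36 to 14.5). Anxa6 had rank 7 in replicate 1 and rank 5 in replicate 2.

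The Anxa6 transcripts with and without the 18-base cassette exon printed above could not be compared firmly. The form that lacks the exon, ENSMUST00000102727, held 100% of the abundance in replicate 1 and 41.25% in replicate 2 in the usual estimate. The form that has it, ENSMUST00000108883, held 0% and 58.68%. In the posterior mean estimates the form without the exon held 55.76% in replicate 1 and 41.31% in replicate 2. In replicate 1, with 282 expected counts, the authors' credibility bounds were wide for both forms. They ran from 0.1766 to 9.373 TPM with the exon and from 0.6077 to 10.02 TPM without it. Reads over the exon of 18 bases were not counted, so whether its use differed between the libraries cannot be said. In replicate 2, with 4603 counts, both estimates put the form with the exon at more than the other.

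**Figure D2:**
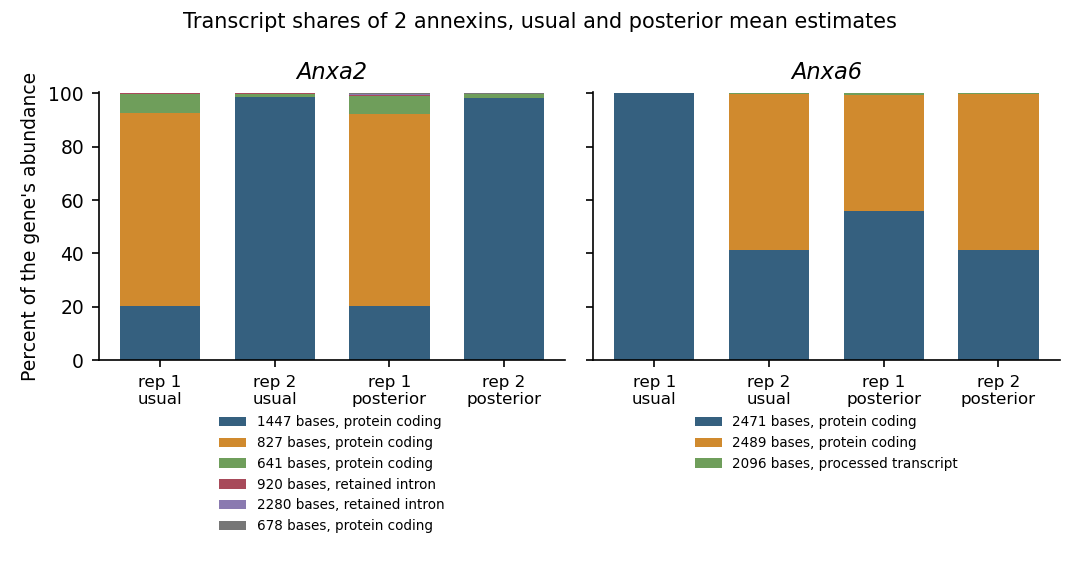
Percent of the gene's abundance (0 to 100) held by each annotated transcript of Anxa2 and Anxa6 in replicates 1 and 2 (rep 1, rep 2), from the usual and the posterior mean estimates; colours are transcripts, named by length and type. For Anxa2 both estimates give the 827-base form the most in replicate 1 and the 1447-base form the most in replicate 2, while for Anxa6 in replicate 1 the estimates differ (100% and 55.76% for the form without the exon).

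Of the other annexins, Anxa3 and Anxa5 have a single transcript in the tables, and in 8 of 10 annexins the same transcript led in both libraries. In the usual estimate those 8 had a leading transcript above 90% in each. In the posterior mean estimate 6 of 10 annexins did: the leading transcript of Anxa9 held 35.86% and 74.84% in place of 100% in both, and that of Anxa11 held 74.51% in replicate 1 in place of 96.02%. Among them was Anxa7, in which the transcript without the 66-base cassette exon held 98.27% in replicate 1 and 97.93% in replicate 2, and the long form with the exon 1.73% and 2.07%. The share of the long Anxa7 form, which is known as an exon choice of striated muscle and brain, was thus low in both libraries.

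Anxa7 (ENSMUSG00000021814.12, chr14:20455260-20480133, minus strand) encodes synexin, known for promoting fusion of secretory granules and of lamellar bodies with the cell membrane. Its libraries were the closest in the family by scaled counts. Its TPM was 70.76 in replicate 1 and 60.95 in replicate 2 (mean 65.86 ± 6.937 TPM, SD, n = 2). From 2114 and 2567 expected counts, the scaled ratio of replicate 2 to replicate 1 was 0.9529 (interval 0.8993 to 1.01). Scaled by total counts, the signs of the log2 ratios of Anxa3, Anxa5 and Anxa7 turned, from -0.25, -0.18 and -0.07 to 0.01, 0.09 and 0.19, so no direction is given for these 3.

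Anxa11 (ENSMUSG00000021866.11, chr14:25842156-25886804, plus strand) encodes an annexin with a long N-terminal region that binds Pdcd6 and S100a6 and links RNA granules to lysosomes. Its TPM was 4.76 in replicate 1 and 65.41 in replicate 2 (mean 35.09 ± 42.89 TPM, SD, n = 2). The expected counts were 118.37 and 2291.25, and scaled counts were 15.24-fold higher in replicate 2 (interval 12.66 to 18.49), the widest difference in the family. This value is uncertain, because Anxa11 has near-identical copies and was the only 1 of the 10 whose expected counts were not whole numbers.

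The unprocessed pseudogenes Gm2260 (chr14:26016431-26025837, plus strand) and Gm2274 (chr14:26156036-26163648, plus strand) copy the 3′ part of the Anxa11 coding sequence. Gm2260 matched Anxa11 over 657 bases with 0 mismatches, and Gm2274 over 609 bases with 7 mismatches, all in its first 7 bases. The stretch of 60 bases printed above is therefore the same in all 3 genes. Gm2260 received 155.87 expected counts in replicate 1 and 153.98 in replicate 2, and Gm2274 received 307.76 and 33.77. The 3 genes together summed to whole counts, 582 and 2479, of which Anxa11 was assigned 20.3% in replicate 1 and 92.4% in replicate 2. For the 3 genes as 1 unit, scaled counts were 3.343-fold higher in replicate 2 (interval 3.053 to 3.665) in place of 15.24-fold. On scaled counts the direction for Anxa11 was the same either way, while its size depended on how reads of the copied stretch were assigned. This pooled count was chosen after the values were seen.

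**Figure D3:**
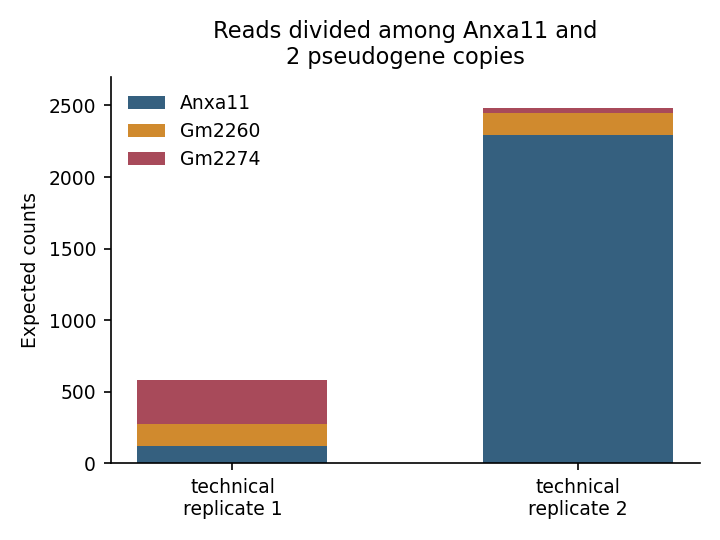
Expected counts (linear axis from 0) assigned to Anxa11 and to the pseudogenes Gm2260 and Gm2274 in technical replicates 1 and 2, stacked to the sum of the 3 genes. Of 582 counts in replicate 1, Gm2274 has the largest part, and of 2479 counts in replicate 2, Anxa11 has nearly all.

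Anxa8 (ENSMUSG00000021950.11, chr14:34085981-34100571, plus strand), which encodes an anticoagulant annexin of low abundance in most tissues, had a TPM of 3.58 in replicate 1 and 20.09 in replicate 2. The mean was 11.84 ± 11.67 TPM (SD, n = 2). From 68 and 534 expected counts, scaled counts were 6.163-fold higher in replicate 2 (interval 4.781 to 8.054).

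Anxa9 (ENSMUSG00000015702.9, chr3:95296096-95307176, minus strand) encodes a divergent annexin whose calcium-binding sites are degenerate. It was the least abundant of the 10 in both libraries, at 1.66 and 3.95 TPM, a mean of 2.805 ± 1.619 TPM (SD, n = 2). From 31 and 104 expected counts, scaled counts were 2.633-fold higher in replicate 2, with an interval of 1.748 to 4.069 that reaches below 2-fold. Mindy1 overlaps Anxa9 on the opposite strand and had 158 and 1238 expected counts. This overlap is that of the gene bounds, and an overlap of exons was not examined. Whether the counting used strand is not given in the sources used here. The expected counts of Anxa9 were whole numbers in both libraries, and whether reads of Mindy1 were counted at Anxa9 was not tested. The gene 6330562C20Rik, annotated on the same strand as Anxa9 and with 46 stretches of 50 bases in common with it, had 3 and 23 expected counts. Of the annexins that are not members here, Anxa10 had 0 counts in both libraries, and Anxa13 stood at 0.12 and 0.17 TPM.

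The difference between the libraries moved with the GC content of the transcripts. The mean GC content of a gene's annotated transcripts ran from 43% in Anxa1 to 55.3% in Anxa11, with a median of 50.4% over all genes tested. Spearman's rho of GC content and log2 ratio was 0.85 over the 10 annexins and 0.82 over 14067 genes tested. These are descriptions across genes, which share both libraries. With the genes ranked by GC content into 10 equal bins, Anxa1 lies in bin 2, in which 71.6% of genes were over 2-fold lower in replicate 2. Anxa11 lies in bin 8, in which 75.5% were past 2-fold higher. Anxa2, Anxa5 and Anxa8 lie in bin 6, where 42.5% were past 2-fold higher and 10.7% past 2-fold lower. Within that bin Anxa2 and Anxa8 were past 2-fold higher and Anxa5 was not.

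After a lowess trend of the log2 ratio on GC content was subtracted, 4 annexins stood past 2-fold on the higher side and 0 on the lower side, where 22.6% and 20.5% of 14067 genes stood. Those 4 were Anxa2, at a log2 ratio of 2.22, Anxa8 at 2.04, Anxa6 at 1.81 and Anxa11 at 1.17. The place of Anxa11 among them rests on the assignment of reads: counted with its pseudogene copies and with the trend at Anxa11 subtracted, its log2 ratio was -1.02, which left 3 annexins past 2-fold on the higher side and 1 on the lower. Anxa1 turned from -1.05 to 0.44 and Anxa9 from 1.38 to -0.44. The part of GC content in the levels of single annexins was not tested. With total counts in place of TMM scaling, 5 annexins were past 2-fold on the higher side and 0 on the lower, beside 42.4% and 22.4% of all genes. By the ratio of TPM 5 were higher and 2 lower, beside 37.2% and 31.9%.

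**Figure D4:**
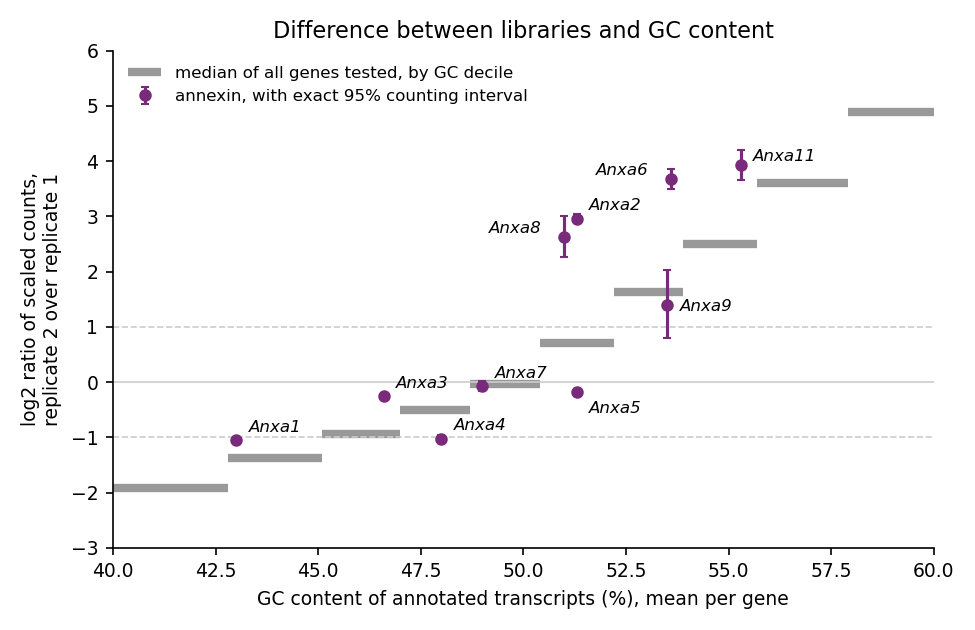
log2 ratio of TMM-scaled counts, replicate 2 over replicate 1, against the mean GC content of each annexin's annotated transcripts; bars are exact 95% counting intervals, grey segments the median of all genes tested in each of 10 equal bins by GC content (the end segments run past the axis), and dashed lines mark 2-fold. The grey medians climb with GC content; Anxa2, Anxa6 and Anxa8 lie more than 1 log2 unit above them and Anxa5 lies below, while Anxa11 lies above as plotted (3.92) but below the median of its bin (2.51) when counted with its pseudogene copies (1.74).

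Genes that work with annexins were described in lists, which like the annexins were chosen with earlier results of these data known. Each count of these lists stands beside the 39.3% of all genes compared that were past 2-fold higher and the 28.2% past 2-fold lower, or, with the GC trend subtracted, beside 22.6% and 20.5%. The lists hold 5 to 10 compared genes each, and several single calls ended once the GC trend was subtracted. Of 7 calcium-binding partners, 5 were over 2-fold higher in replicate 2, 1 was lower and 1 lay within 2-fold, with a median log2 ratio of 1.68. S100a10, the partner of Anxa2, stood at 127.51 and 488.86 TPM. S100a11, which binds Anxa1, stood at 462.83 and 1343.13 TPM. S100a6, which binds Anxa11, stood at 111.88 and 739.23 TPM, and S100a1 at 121.38 and 354.4 TPM. The 5 genes that were higher were the S100 genes of the list, and the 1 that was lower by scaled counts was Sri (sorcin, a ligand of Anxa7 and Anxa11), named here after its values were seen. The TPM of Sri was 176.59 and 147.09, which is within 2-fold. With the GC trend subtracted 4 of the 7 were higher and 0 lower: the log2 ratio of S100a1 went from 1.68 to 0.02 and that of Sri from -1.16 to -0.13.

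Of 8 genes of the receptors and the plasminogen system, 6 were abundant enough to be compared. None of these was over 2-fold higher, 1 was lower and 5 lay within 2-fold, with a median log2 ratio of 0.11. Fpr2, a receptor of Anxa1, stood at 55.99 and 18.86 TPM, and Fpr1 at 17.57 and 17.17 TPM. Plgrkt, a plasminogen receptor, stood at 61.99 and 40.15 TPM, and Plat, the tissue plasminogen activator, at 20.39 and 27.45 TPM. Plg stood at 0.1 and 0.07 TPM and Fpr3 had 0 counts in both. With the GC trend subtracted 1 of the 6 was higher, Fpr1 at a log2 ratio of 1.02 in place of 0.11, and 0 were lower, with Fpr2 at 0.11 in place of -1.38.

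In the membrane repair list 10 of 11 genes were compared, of which 5 were higher, 1 lower and 4 within 2-fold, with a median log2 ratio of 0.60. By the ratio of TPM 5 were higher and 2 lower, beside 37.2% and 31.9% of all genes compared. Capns1, the small calpain subunit, stood at 25.15 and 278.8 TPM and Chmp4b, an ESCRT-III protein, at 61.11 and 171.04 TPM. Capn2, a calpain catalytic subunit, was close in both libraries at 90.89 and 74.83 TPM, as was the Anxa2 partner Ahnak at 46.73 and 58.53 TPM. With the GC trend subtracted 3 of the 10 were higher and 2 lower: the log2 ratio of Chmp4b went from 1.56 to 0.11, that of Capn2 from -0.14 to -1.11 and that of Ahnak from 0.04 to -1.27, while Capns1 stood at 2.86.

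Of 11 genes of phosphatidylserine exposure and recognition, 10 were compared, and 4 were higher, 2 lower and 4 within 2-fold, with a median log2 ratio of 0.49. The bridging proteins Mfge8, at 1.93 and 187.55 TPM, and Gas6, at 4.86 and 153.46 TPM, were over 2-fold higher in replicate 2. Plscr1, a scramblase, stood at 61.86 and 49.48 TPM, and the receptor Axl at 43.36 and 36.31 TPM, both within 2-fold. With the GC trend subtracted 4 were again higher and 2 lower, but not all the same genes: the log2 ratio of Mfge8 was 3.29 and that of Gas6 1.70, while Plscr1 went from 0.12 to 1.37 and Axl from -0.15 to -3.15. Stab2 stood at 0.02 and 0.4 TPM.

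Copines are another family of calcium-dependent phospholipid-binding proteins. Of 9 copines 5 were compared, and 2 were higher in replicate 2 and the 3 most abundant were lower, with a median log2 ratio of -1.36. Cpne1 stood at 49.86 and 16.82 TPM, Cpne3 at 47.77 and 12.49 TPM, Cpne8 at 28.89 and 18.88 TPM, and Cpne2 at 1.41 and 5.56 TPM. By the ratio of TPM 2 were lower, since the log2 ratio of Cpne8 was -0.61. With the GC trend subtracted 0 of the 5 were higher and 2 were lower: Cpne1 stood at -3.31 and Cpne2 at -1.27, and Cpne3 turned from -1.79 to 0.44. Cpne4, Cpne6, Cpne7 and Cpne9 were below 1 TPM in both libraries.

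**Figure D5:**
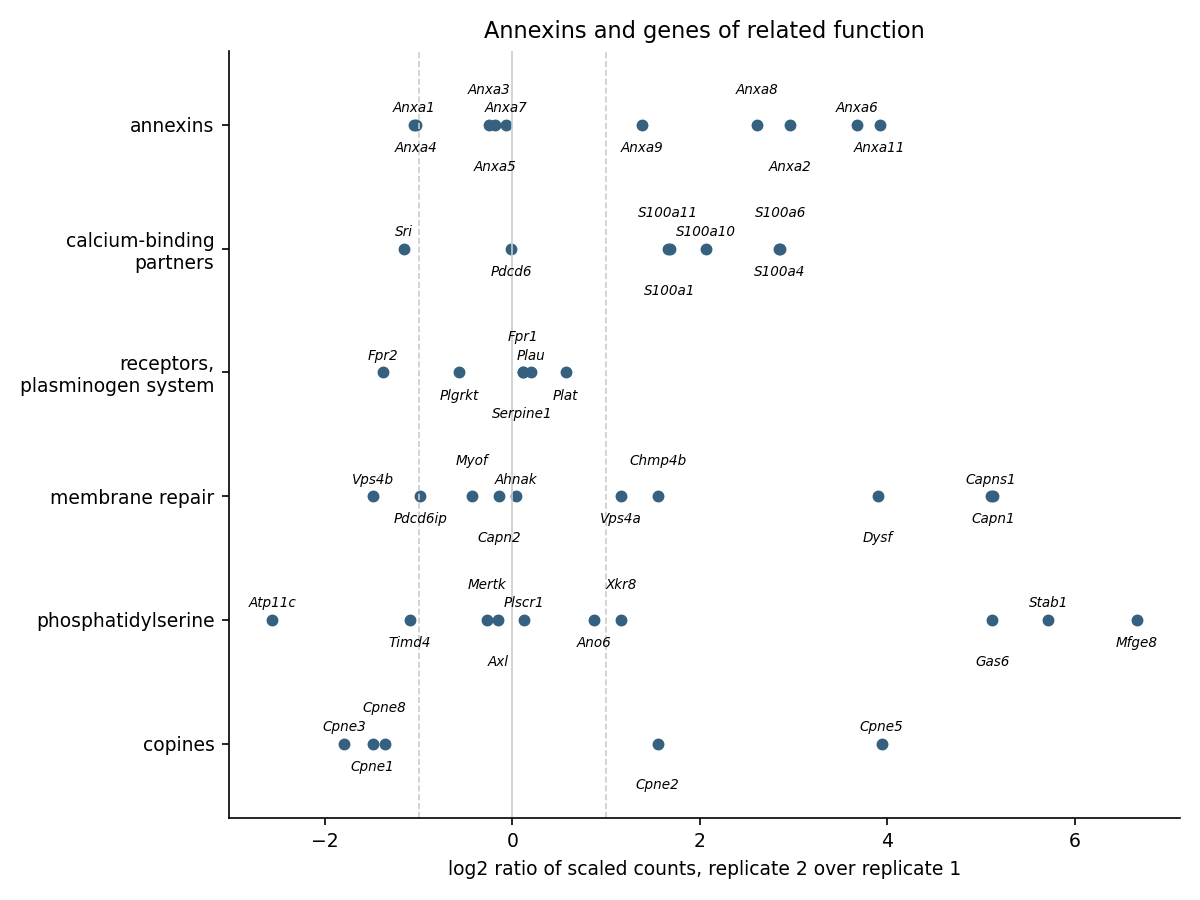
log2 ratio of TMM-scaled counts, replicate 2 over replicate 1, of the 10 annexins and of the genes of each related list with a mean TPM of at least 1; each point is a gene, and dashed lines mark 2-fold. The S100 genes lie to the right, the receptors and plasminogen genes lie mostly within the lines, and 3 of 5 copines lie to the left.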

How the data were processed

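Both libraries come from 1 mouse lung and form 1 group. The deposited expected counts are estimated read numbers for each gene and transcript. TPM and posterior mean TPM are abundances per length deposited by the authors. The percent of a gene's abundance held by each transcript was also deposited by the authors, as were lengths in bases. The deposited file descriptions give assembly mm10 and annotation M4; the aligner is not given in the sources used here, nor is the quantifier. The authors' deposited credibility bounds refer to the posterior mean, with no stated level; the usual TPM lay inside them for 4 annexins in replicate 1 and 2 in replicate 2.

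Symbols matched 42462 of 43346 genes by identifier in GENCODE M21 (GRCm38), which also gave positions and sequences. Expected counts were rounded and scaled by TMM in edgeR 4.0.16 (R 4.3.3), and log2 ratios used a prior of 0.5 counts. Only genes whose mean TPM reached 1 entered the comparison. With 16104442 and 17110882 expected counts, 3 counts, taken as the floor, are 0.186 and 0.175 CPM. Reads carry no molecular identifiers in the files, so intervals cover counting error only. GC content was averaged over the annotated transcripts of a gene, and the lowess span was 0.3. The ratio, its interval and the 2-fold call were tested on simulated counts with known folds. Those counts held counting error only, few changed genes and no GC trend. They cannot show how the scaling or the 2-fold call behaves where many genes differ, as they do here. All annexins are named, with the 4 most abundant genes of each related list and those below 1 TPM in both libraries; Anxa5, Anxa1 and Anxa2 have their 2 nearest genes in log2(TPM + 1). The members and lists were chosen with earlier results of these data known. Alternatives were the posterior mean TPM, other scalings, filters and priors, a GC trend, leaving out a library and the pooled Anxa11 count, the last also with the GC trend, both chosen after the values were seen.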

Additional observations from a re-analysis of the deposited data

How the results depend on the processing

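The annexin share of all TPM, 0.1779%, became 0.1671% with posterior mean TPM and 0.2205% as a share of expected counts, and was 0.1744% and 0.1815% in the single libraries. The count of annexins with the same leading transcript, 8, was 8 with posterior mean shares too, while a share above 90% in both libraries was reached by 6. The number of annexins over 2-fold higher, 5, was 4 or 5 under the alternatives to scaling, filter, prior and GC trend taken singly and 3 with Anxa11 counted with its copies and the GC trend subtracted. The number over 2-fold lower, 2, became 0 with total counts and 0 with the GC trend subtracted, and 1 with both the copies and the trend; Anxa1 and Anxa4 lie so near 2-fold that scaling alone moves them. With the GC trend subtracted the log2 ratio of Anxa1 reversed to 0.44 and that of Anxa9 to -0.44, and with the copies counted too that of Anxa11 to -1.02; the cause was not tested. Leaving aside the filters, which cannot change a gene's own ratio, 26 of 52 alternative log2 ratios of single annexins stayed within the counting interval of the reported value. The sign turned in 8, of which 5 belong to Anxa3, Anxa5 and Anxa7, within 2-fold in the report. Ratios need both libraries, so no library could be left out of them. No paired analysis was possible because both libraries belong to 1 group. Depth limits Anxa9, with 31 and 104 counts, and Anxa8 and Anxa11 in replicate 1. The use of the Anxa6 exon is limited by wide credibility bounds in replicate 1.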
